A study of Mus musculus with 4 samples.

Results

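Elastic fibres are the stretchable part of the extracellular matrix. The 10 genes described here encode their core protein elastin (Eln), the fibrillins of the microfibril scaffold (Fbn1, Fbn2), fibulins that link the parts (Fbln1, Fbln2, Fbln5), microfibril-associated glycoproteins (Mfap2, Mfap5) and lysyl oxidases that crosslink elastin and collagen (Lox, Loxl1). All 10 were found by symbol among 22558 listed genes. They were picked by family, and the set was selected on a measured value. That value was the decrease of Eln after light, the largest among matrix genes. The changes against the control are therefore given as descriptions. The study measured RNA of eyes from Abca4-/-Rdh8-/- mice at 6 weeks of age, and every sample, the control included, carries both gene deletions. The groups were eyes with no light exposure (control), and eyes collected 3 h, 24 h and 7 days after light. Each sample is described as eyes of 3 mice, and a single FPKM value per gene and condition was deposited, that is, fragments scaled to transcript length and library size. No difference below therefore has a replicate check, and no test was possible. FPKM is scaled to length, so levels can be set side by side between genes.

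In elastic fibres, tropoelastin is laid down on bundles of fibrillin microfibrils and fixed there by lysyl oxidases, which oxidise lysines so that neighbouring chains bind covalently. In the eye, elastic fibres lie in the sclera, the vessel walls, the outflow tract and the elastic layer of Bruch's membrane under the pigment epithelium, and elastin-free fibrillin microfibrils form the zonule that holds the lens. Elastin is made mainly while tissues grow and turns over slowly afterwards, so its RNA and the amount of fibre in a tissue are different quantities.

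The labels name whole eye as the tissue, while the extraction protocol speaks of removed retinas. Lens markers summed to between 97147 and 110141 FPKM and rod markers to between 8130 and 12694 FPKM, so both lens and retina were present in every sample, and fibroblast markers summed to between 890.4 and 999.4 FPKM. Here and below, 4 values in a row stand for the control, 3 h, 24 h and 7 days, in that order, and 3 values for the light samples. Abca4 was at 56.3, 40.6, 34.3 and 37.4 FPKM and Rdh8 at 10.5, 14.2, 11.9 and 11.02 FPKM, values for whole genes that do not check the deletions. The 4 Y-linked genes examined summed to 18.5 FPKM at 7 days and to at most 0.0189 FPKM in the other samples, so sex and time cannot be told apart in any comparison of the 7-day sample. Depth was approximated from olfactory receptor genes listed above 0 in a single sample, where 1 fragment was worth a median of 0.0448, 0.0467, 0.0349 and 0.0255 FPKM. Scaled to coding length, the members rested on roughly 134 (Mfap5 at 24 h) to 5120 (Fbn1 at 7 days) fragments per sample. The intervals given with ratios below are 95% counting intervals from these approximate numbers and leave out the spread between animals, which is not known. In whole-eye RNA, fewer cells of a type and less RNA per cell cannot be told apart.

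Most members were highest in the control, and all were lowest at 3 h or 24 h. The control had the highest value for 9 of the 10 genes, the exception being Fbln5. The lowest value was at 3 h for 5 genes (Fbn2, Fbln1, Fbln5, Mfap2, Loxl1). It was at 24 h for the other 5 (Eln, Fbn1, Fbln2, Mfap5, Lox). Below the control were 10, 9 and 10 members at the 3 times, against 45.7%, 48.6% and 49.1% of all genes. The share of all genes highest in the control was not computed. Comparisons with the control chose the set, so nothing is read from these counts. Summed over the 10 genes, the level was 201.6, 133.8, 133.3 and 163.9 FPKM. Without Eln the sum was 70.8%, 71.1% and 85.9% of the control at the 3 times. All 3 comparisons share the same control sample, so any peculiarity of that single sample enters all of them.

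**Figure D1:**
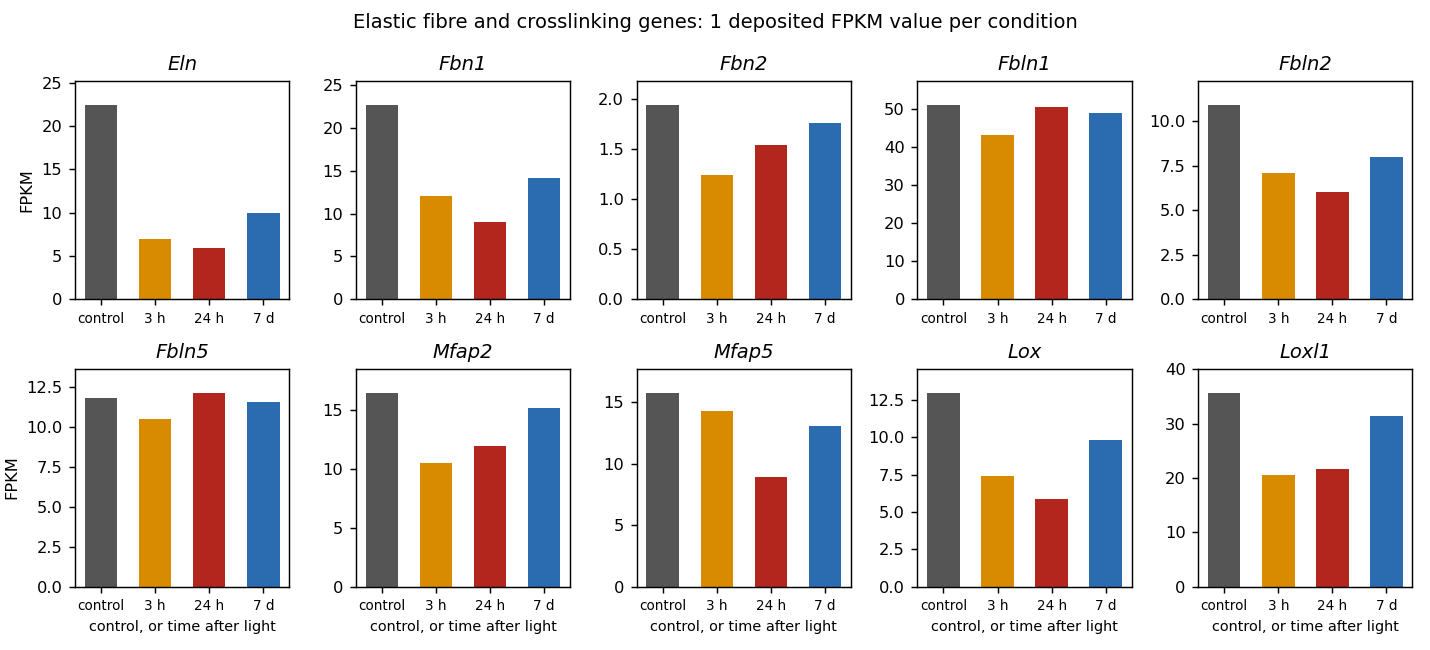
Deposited FPKM of each of the 10 genes (vertical axis, starting at 0 and scaled to each gene) in the control and at 3 h, 24 h and 7 days after light, 1 value per bar and no error bar because there are no replicates. Eln drops from 22.4 to 5.89 FPKM at 24 h, whereas Fbln1 and Fbln5 stay near their control bars.

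Changes are differences in log2(FPKM + 1) between samples, and a gene was counted as lower at a change of -1 or beyond. At 3 h 1 of 10 members was lower (Eln), against 0.240% of the 14194 genes with a mean of at least 1 FPKM. At 24 h 3 members were lower (Eln, Fbn1 and Lox), against 0.359% of genes, and at 7 days 1 was (Eln), against 0.190%. These contrasts chose the set, so nothing is read from the counts. The median change of the members was -0.58, -0.73 and -0.21 at the successive times, against 0.02, 0.01 and 0.00 for all genes. Without Eln, the members' median was -0.56, -0.70 and -0.18.

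**Figure D2:**
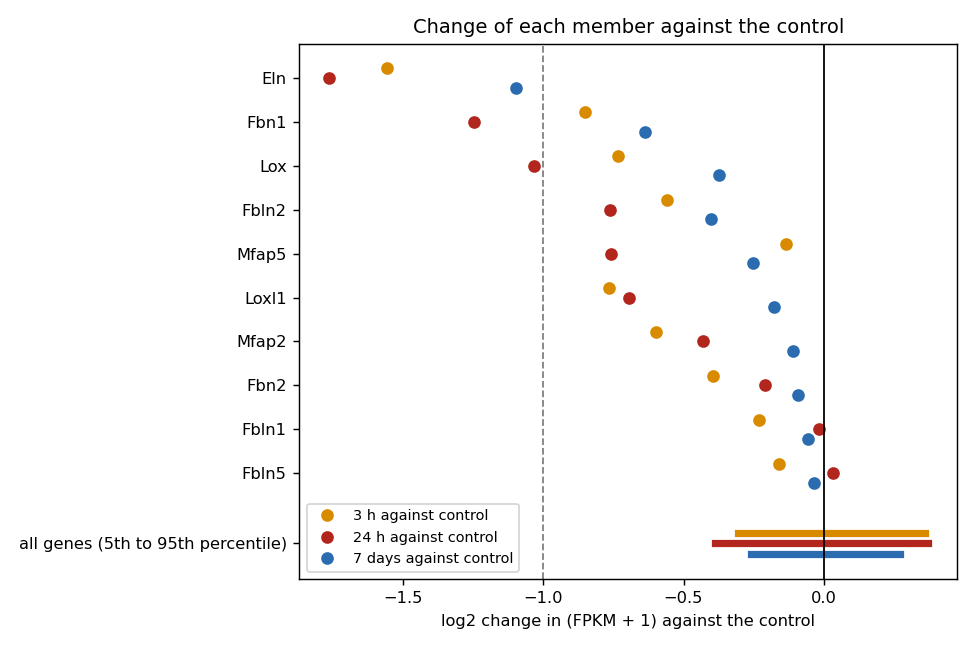
Change in log2(FPKM + 1) of each gene against the control (horizontal axis) at 3 h, 24 h and 7 days, with genes ordered by their 24 h value; thick bars at the bottom run from the 5th to the 95th percentile of all 14194 genes, and the dashed line marks -1. Eln lies beyond the dashed line at all 3 times, Fbn1 and Lox only at 24 h, and Fbln1 and Fbln5 lie within the range of all genes.

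Elastin, whose decrease chose the set, had the largest change of the 10 genes at each time. Its place in the set is therefore not a result. Eln was at 22.4 FPKM without light and at 6.96, 5.89 and 9.94 FPKM after it. The control thus stood apart from all 3 light samples, of which the 7-day one was the highest. The ratios of Eln to its control level were 0.31 (counting interval 0.278 to 0.347), 0.26 (0.237 to 0.292) and 0.44 (0.409 to 0.480). Among the 14194 genes its change ranked 19th from the lowest at 3 h, 21st at 24 h and 26th at 7 days. These ranks come from the comparisons that chose the set, so they only describe it. In the control its level was within counting error of that of Fbn1 (22.7 FPKM), and both followed Fbln1 and Loxl1 in the order of levels. At 24 h it lay near the bottom of the order, between Fbln2 (6.01 FPKM) and Lox (5.84 FPKM) and within counting error of both. As a share of the members' summed FPKM, Eln went from 11.1% to 5.20%, 4.42% and 6.06%.

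Fbn1, the main fibrillin of mature microfibrils and of the zonule, followed Eln at a smaller size. It was at 22.7 FPKM without light and at 12.1, 8.97 and 14.2 FPKM after it. All 3 light samples were below the control, the 24 h sample most. The ratios to the control were 0.53 (0.508 to 0.561), 0.40 (0.377 to 0.416) and 0.63 (0.602 to 0.652). Fbn2, a fibrillin expressed most in development, was the least abundant member, at 1.94, 1.24, 1.54 and 1.76 FPKM. Its lowest value came at 3 h, at 0.64 of the control (0.545 to 0.748), and its interval at 7 days held the control level (0.801 to 1.03). The ratio of Fbn2 to Fbn1 was 0.0855, 0.102, 0.172 and 0.124.

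The fibulins did not move alike. Fbln2, which binds fibrillin and elastin, was at 10.9 FPKM without light and at 7.07, 6.01 and 8.01 FPKM after it, again with every light sample below the control. Its ratios were 0.65 (0.586 to 0.719), 0.55 (0.500 to 0.609) and 0.73 (0.675 to 0.800). Fbln1, a fibulin of basement membranes and elastic fibres, was the most abundant member in every sample, at 50.9, 43.2, 50.4 and 48.9 FPKM. Only its 3 h value lay below the control beyond counting error, at 0.85 (0.801 to 0.899). Fbln5, which tethers tropoelastin to cell surfaces and is needed for elastic fibre assembly in mice, was at 11.9, 10.5, 12.1 and 11.5 FPKM. Its counting interval held the control level each time (0.767 to 1.03, 0.899 to 1.17 and 0.860 to 1.10). The ratio of Eln to Fbln1 consequently went from 0.44 in the control to 0.161, 0.117 and 0.203.

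Start-site regions are shown for comparison, since these members differ in how they moved. They are those of a fibrillin and a fibulin that were below the control in every light sample, and of a fibulin that stayed near it. Each line gives the 250 bases before an annotated start on the gene's own strand (RefSeq, GRCm38.p6; minus strand for Fbn1 and Fbln5, plus strand for Fbln2), with capitals marking any match on either strand to TATAAA (the TATA box), GGGCGG (the GC box), CCAAT or TGACTCA (AP-1 site), none of which overlap here. That table matched 5 of the 10 members (Fbn1, Fbln1, Fbln2, Fbln5 and Mfap2), with 8 start sites, and belongs to a later build than mm9, so coordinates are left out.
Fbn1: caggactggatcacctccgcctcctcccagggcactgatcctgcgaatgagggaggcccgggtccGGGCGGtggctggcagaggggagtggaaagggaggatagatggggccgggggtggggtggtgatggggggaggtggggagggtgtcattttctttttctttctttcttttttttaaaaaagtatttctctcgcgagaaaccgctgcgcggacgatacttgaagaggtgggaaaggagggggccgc
Fbln2: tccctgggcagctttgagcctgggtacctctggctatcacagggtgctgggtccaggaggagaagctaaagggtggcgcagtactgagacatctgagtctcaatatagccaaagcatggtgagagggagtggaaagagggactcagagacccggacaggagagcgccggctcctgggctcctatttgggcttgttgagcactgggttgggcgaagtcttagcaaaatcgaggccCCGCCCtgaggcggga
Fbln5, first start site: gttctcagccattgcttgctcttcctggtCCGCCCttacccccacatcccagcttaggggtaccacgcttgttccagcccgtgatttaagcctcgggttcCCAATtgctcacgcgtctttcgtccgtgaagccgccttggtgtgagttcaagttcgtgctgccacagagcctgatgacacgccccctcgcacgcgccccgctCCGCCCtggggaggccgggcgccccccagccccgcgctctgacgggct
Fbn1 held 1 GC box, 185 bases before the start, and Fbln2 held 1, 16 bases before it. Fbln5 held GC boxes 221 and 48 bases before its first start site and a CCAAT 150 bases before it, and none of the 4 motifs before its second. Over the 8 member windows, 5 held GGGCGG, 2 held CCAAT, and 0 held TATAAA or TGACTCA. The windows of Fbln1 overlap each other, so the 8 are not all separate sequences. Of the 32851 windows of this length in the table, 32.7% held GGGCGG, 33.8% CCAAT, 12.4% TATAAA and 4.46% TGACTCA. Thus the GC box occurred both before members that were below the control in every light sample and before one that stayed near it.

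The microfibril-associated glycoproteins, small proteins that sit on fibrillin, reached their lowest values at different times. Mfap2 was at 16.5 FPKM without light and at 10.6, 12.0 and 15.2 FPKM after it. It was lowest at 3 h, at 0.64 of the control (0.516 to 0.794), and within counting error of the control by 7 days (0.779 to 1.09). Mfap5 was at 15.7, 14.2, 8.91 and 13.1 FPKM. Its 3 h value was within counting error of the control (0.732 to 1.12), and it was lowest at 24 h, at 0.57 (0.453 to 0.707). The ratio of Mfap5 to Mfap2 was 0.95, 1.35, 0.74 and 0.86. Both genes are short, so their intervals are the widest of the set.

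Both crosslinking enzymes were below the control beyond counting error at all 3 times, but only Lox at 24 h was beyond -1. Lox, the founding lysyl oxidase, was at 13.0 FPKM without light and at 7.40, 5.84 and 9.80 FPKM after it. Its ratios to the control were 0.57 (0.481 to 0.675), 0.45 (0.381 to 0.531) and 0.76 (0.661 to 0.862). Loxl1, the paralogue that works with fibulin-5 on elastin and whose human gene carries risk variants for exfoliation glaucoma, was the second most abundant member, at 35.6, 20.5, 21.6 and 31.4 FPKM. It was at 0.58 (0.530 to 0.626), 0.61 (0.562 to 0.654) and 0.88 (0.828 to 0.940) of the control. The 2 enzymes were thus at a similar fraction of control at 3 h, and Lox was at the smaller fraction at 24 h and 7 days.

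Comparing successive times leaves the control out but not the selection. The light samples in which Eln was low helped to choose the set, and they enter both steps. The steps are therefore descriptions as well. From 3 h to 24 h, 5 members were higher and 5 lower (below 0 were 52.5% of all genes), with a median change of -0.07 (all genes -0.01). None was beyond -1, against 0.437% of genes. Mfap5 had the largest step, to 0.63 of its 3 h level (0.497 to 0.787), and Fbn1 was at 0.74 (0.700 to 0.784). From 24 h to 7 days, 8 members were higher and 2 lower (below 0 were 51.4% of all genes), with a median of 0.43 (all genes -0.01). None was beyond 1, against 0.296% of genes, and none beyond -1, against 0.514%. Eln was 1.69 times its 24 h level (1.51 to 1.88), Lox 1.68 times (1.43 to 1.97), Fbn1 1.58 times (1.51 to 1.66), Mfap5 1.47 times and Loxl1 1.45 times, while Fbln1 and Fbln5 were at 0.97 and 0.95. These 2 steps share the 24 h sample, and the second also runs from a sample without Y-linked RNA to one with it. By their change against the control, 7, 7 and 4 members were in the lowest 5% of all genes at the 3 times. The 4 at 7 days were Eln, Fbn1, Fbln2 and Lox. The comparisons with the control chose the set, so nothing is read from these counts.

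Most other genes of elastic fibre assembly lay below the control. Of 21 listed, 20 passed a mean of 1 FPKM, and none was beyond 1 log2 unit in either direction at any time. This count depends on the pseudocount of 1, since the plain ratio of Emilin1 to the control at 3 h was 0.495. Against the control, 17, 16 and 14 of the 20 were below 0 at 3 h, 24 h and 7 days (all genes 45.7%, 48.6% and 49.1%), with medians of -0.30, -0.26 and -0.05. Efemp1, which encodes fibulin-3, had the largest mean and was at 56.6, 54.2, 71.1 and 67.2 FPKM, above the control at 24 h and 7 days. Emilin1, an elastin-associated glycoprotein, was at 11.2, 5.55, 7.75 and 9.69 FPKM, and Mfap4, which binds elastic fibres, was at 68.3, 52.7, 51.4 and 65.6 FPKM. Emilin1 and Mfap4, like Efemp2, Loxl2, Loxl4, Mmp14, Mmp2, Ctss, Itgb8 and Tgfb3 below, were chosen after their values were seen. Efemp2, the fibulin that brings lysyl oxidase to elastin, was at 22.4, 21.4, 24.8 and 27.2 FPKM.

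The other crosslinking genes gave medians of -0.16, -0.07 and -0.03, with none of 11 beyond 1 log2 unit. Tgm2, a transglutaminase that joins matrix proteins through another kind of bond, was at 54.3, 48.3, 52.1 and 53.9 FPKM. Among lysyl oxidase paralogues the directions differed. Loxl2 was at 11.4, 6.41, 7.01 and 8.54 FPKM, below the control in all light samples. Loxl4 was at 1.91, 3.90, 3.84 and 2.02 FPKM, above the control at 3 h and 24 h and near it at 7 days. Its plain ratios at 3 h and 24 h were 2.04 and 2.01, beyond 1 log2 unit without the pseudocount of 1.

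Proteases able to cut elastin showed no common direction. Of 10 listed, 6 passed the mean of 1 FPKM, none was beyond 1 log2 unit, and the medians were -0.11, -0.20 and -0.01. Ctsl, a lysosomal cathepsin, was the most abundant, at 222.1, 234.3, 258.3 and 241.3 FPKM. Mmp14, a membrane-bound collagenase, was at 34.6, 17.7, 21.0 and 26.7 FPKM, and Mmp2, the gelatinase it activates, at 57.4, 36.8, 37.0 and 40.1 FPKM. Both were below the control in every light sample. Ctss, an elastin-cutting cathepsin of macrophages, was at 19.8, 23.3, 22.6 and 39.6 FPKM, with its highest value at 7 days.

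Of 6 protease inhibitor genes 4 passed, with medians of 0.08, -0.06 and 0.19. Timp1, an inducible inhibitor of metalloproteinases, was at 2.96, 3.23, 11.5 and 4.91 FPKM. Its change of 1.66 at 24 h was the only one of the list beyond 1 log2 unit against the control. Among all 14194 genes, 106 were higher by at least 1 log2 unit at 24 h. Cst3, the secreted cathepsin inhibitor cystatin C, was at 1126, 1177, 1120 and 1342 FPKM.

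Receptor genes and genes of the TGF-beta pathway, a known inducer of elastin and lysyl oxidase transcription, included genes below and above the control. Among 9 of 10 receptor genes that passed, none was beyond 1 log2 unit, with medians of -0.17, -0.11 and 0.06 and with 7, 6 and 4 below 0. Below 0 were 45.7%, 48.6% and 49.1% of all genes. Itgb8, a chain of an integrin that activates latent TGF-beta, was at 38.0, 32.9, 23.7 and 37.3 FPKM. Itgb5, an integrin chain, was at 51.5, 50.1, 47.0 and 58.5 FPKM. The 15 TGF-beta genes had medians of 0.08, 0.05 and 0.11, and 10, 9 and 12 of them were above 0. Among all 14194 genes, 7674, 7277 and 7203 were above 0. Ctgf, a matricellular target, was at 56.3, 123.4, 62.2 and 97.8 FPKM and was beyond 1 log2 unit at 3 h. So were 78 of all 14194 genes in that direction. Tgfb3, a TGF-beta ligand, was at 39.4, 27.0, 28.2 and 40.6 FPKM, below the control at 3 h and 24 h. Whether these genes differ from the members was not tested.

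Fibrillar collagens, the tensile partners of elastic fibres, had lower medians than the members at each time. All 9 passed, and their medians were -0.75, -0.85 and -0.41, against -0.58, -0.73 and -0.21 for the members. The numbers lower by 1 log2 unit or more were 3, 3 and 0, against 0.240%, 0.359% and 0.190% of all genes. Col1a2, the most abundant, was at 474.3, 255.6, 262.1 and 357.2 FPKM. Col3a1 was at 165.9, 76.2, 60.8 and 98.9 FPKM, Col1a1 at 468.4, 223.9, 230.5 and 357.5 FPKM, and Col5a1 at 26.1, 12.5, 12.3 and 16.2 FPKM. In each of these 4 genes every light sample was below the control, with the 7-day value nearest to it. Within samples, the ratio of Eln to Col1a1 was 0.0478, 0.0311, 0.0256 and 0.0278. Small leucine-rich proteoglycans, which coat collagen fibrils, had medians of -0.15, -0.19 and 0.07 with none of 11 beyond 1 log2 unit, and Dcn, the most abundant, was at 768.5, 759.7, 728.4 and 846.1 FPKM. Whether the members differ from either family was not tested.

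**Figure D3:**
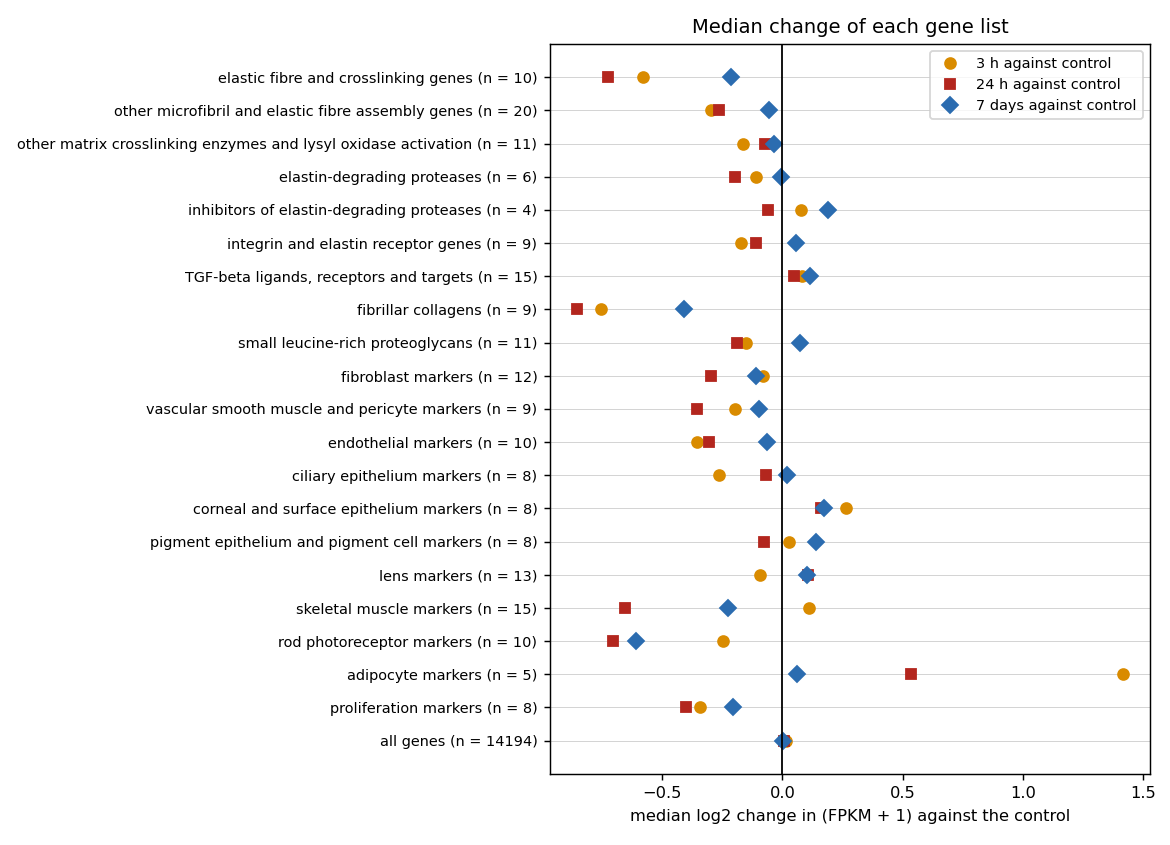
Median change in log2(FPKM + 1) against the control (horizontal axis) of each gene list (rows, with the number of genes at a mean of at least 1 FPKM) at 3 h, 24 h and 7 days. The fibrillar collagens lie lower than the members (-0.58, -0.73, -0.21) at each time, and all genes lie within 0.02 of 0.

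Markers of cells that make or border elastic fibres were mostly below the control at 3 h and 24 h. Of all genes, 45.7%, 48.6% and 49.1% were below the control at 3 h, 24 h and 7 days. The 12 fibroblast markers had medians of -0.08, -0.30 and -0.11 with 9, 9 and 7 of them below 0, and summed to 901.8, 890.4, 999.4 and 924.7 FPKM. Vim, the most abundant of them and shared with glia and lens, was at 326.4, 333.2, 457.5 and 358.9 FPKM, so that it alone put the sum at 24 h above the control. Without Vim the other 11 summed to 575.4, 557.3, 541.9 and 565.8 FPKM. Cd248, a stromal cell membrane protein, was at 11.7, 5.18, 6.13 and 8.73 FPKM, the 1 marker of 12 lower by 1 log2 unit, at 3 h. At that time 0.240% of all genes were lower by as much. The 9 smooth muscle and pericyte markers had medians of -0.20, -0.36 and -0.10 and summed to 322.6, 292.4, 274.0 and 321.9 FPKM, with Acta2 at 112.3, 93.9, 101.8 and 116.1 FPKM. The 10 endothelial markers had medians of -0.36, -0.30 and -0.07 with 10, 9 and 6 of them below 0, and summed to 116.6, 84.0, 103.7 and 116.6 FPKM. Kdr, the VEGF receptor, was at 21.7, 12.9, 31.0 and 29.0 FPKM and was the 1 marker above the control at 24 h. Without Kdr the other 9 summed to 74.9%, 76.6% and 92.3% of the control. The 8 ciliary epithelium markers, from the tissue next to the zonule, had medians of -0.26, -0.07 and 0.02, with Car2 at 140.7, 130.8, 135.4 and 141.0 FPKM. Rod photoreceptor markers, from cells that make no elastic fibres, had medians of -0.25, -0.70 and -0.61, with 8, 9 and 10 of 10 below 0, and summed to 87.3%, 64.0% and 66.4% of the control. At 24 h their median was thus near that of the members (-0.73), and at 7 days it was lower than theirs (-0.21). No marker of these 5 lists was listed at 0 in any sample. Their part in the members' change was not tested.

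Tissue carried with the eye also varied. The 15 skeletal muscle markers summed to 2019, 2231, 1331 and 1763 FPKM, with a median of -0.66 at 24 h and 0.11 at 3 h. The 7 adipocyte markers summed to 22.1, 65.8, 35.5 and 21.2 FPKM, with 3 of the 5 that passed higher by at least 1 log2 unit at 3 h. Among all 14194 genes, 78 were higher by that much at 3 h. The 8 corneal and surface markers summed to 3972, 4924, 4776 and 4924 FPKM. At 3 h these 3 sums were all above the control while the members were below it. At 24 h the muscle sum was 65.9% of the control and the members' sum 66.1%, with the adipocyte sum at 160.4% and the corneal sum at 120.3%. At 7 days the muscle sum was 87.3% and the members' sum 81.3%, with the adipocyte sum at 95.7% and the corneal sum at 124.0%. The 8 proliferation markers had medians of -0.34, -0.40 and -0.20, and summed to 58.2, 60.4, 65.9 and 55.5 FPKM. Pcna was the largest part of that sum in every sample, at 40.9, 46.8, 50.7 and 40.2 FPKM. The list was split, with 5, 5 and 6 markers below the control and 3, 3 and 2 above it. Whether these shifts touch the members was not tested.

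The genes with the profile most like that of Eln were ranked by the Euclidean distance between their 3 log2 changes against the control and those of Eln, over 10496 other genes with a mean of at least 5 FPKM. Only 4 samples enter this measure, and all genes share the control, so it is a description. The nearest was Slc4a11 (distance 0.59), a membrane transporter of the corneal endothelium, at 15.6, 4.12, 5.79 and 8.66 FPKM. Col3a1 came next (0.66), then Npvf, a neuropeptide precursor (0.96, at 29.8, 10.2, 8.06 and 26.9 FPKM), and Fbn1 (0.99). Col5a1 (1.02), Col1a1 (1.14), the rod transcription factor gene Nr2e3 (1.15), Snora31 (1.18), BB283400 (1.20) and the imprinted RNA gene H19 (1.25) completed the first 10. Of these 10, 3 were fibrillar collagens and 1 was a member. Lox ranked 15th, Fbln2 39th and Loxl1 50th, whereas Fbln1 and Fbln5 ranked 1749th and 2948th. Fbn2 was not ranked because its mean was below 5 FPKM.

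**Figure D4:**
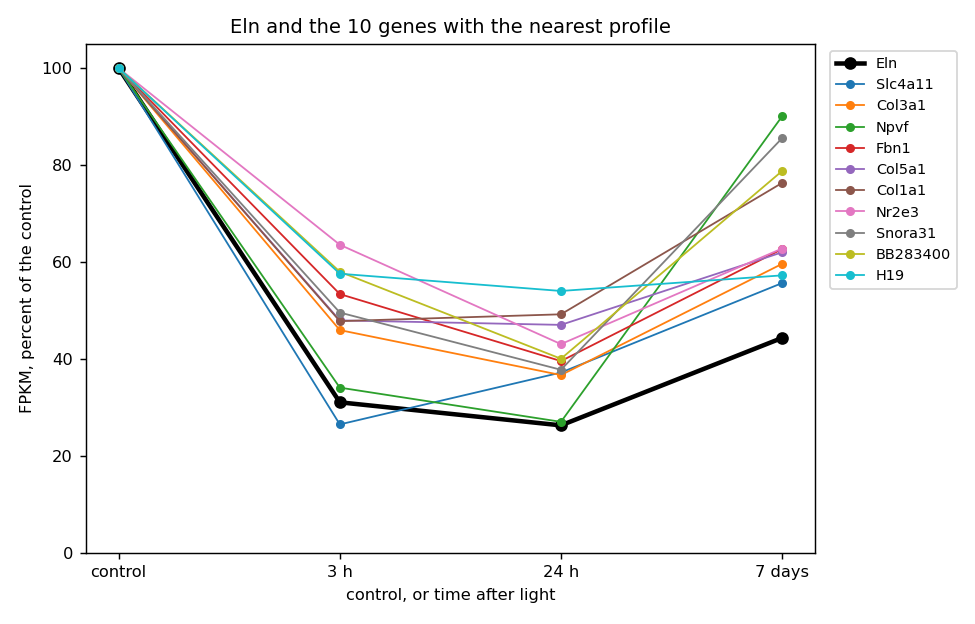
FPKM as a percent of the control (vertical axis, starting at 0) for Eln and the 10 genes nearest to its profile, in the control and at 3 h, 24 h and 7 days. Eln falls to 26.3% at 24 h and is at 44.3% at 7 days, the lowest of the 11 lines at that time.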

How the data were processed

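RNA libraries from eyes were made with a TruSeq RNA kit, per the labels' protocols, which do not mention strand. The deposited values are FPKM. The submitters' processing notes name the build mm9 and the tools Cuffdiff 2.2.1, TopHat2 (version 2) and bcl2fastq 1.8.3. The annotation, the scaling within Cuffdiff and whether a value is a pooled library or a mean of 3 mice is not stated in the labels.

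From these values, log2 changes were computed with a pseudocount of 1, which understates changes of low genes, over 14194 genes with a mean of at least 1 FPKM. With 1 sample per group no test was run, and 5 comparisons were described. Only the code for log2 changes and the fold threshold was checked on simulated data, with planted changes well past that threshold. The depth estimate, counting intervals, likeness ranking and motif counts were not checked in this way. Coding lengths came from GENCODE, used for counting errors only, and promoter sequences and gene classes from RefSeq (GRCm38.p6), where 22327 of 22558 symbols matched. The members, the 22 lists and the naming rule were chosen with earlier results of these data known. The naming rule took all members, and, in each list, genes beyond 1 log2 unit against the control and the gene with the largest mean, plus the 10 genes nearest to Eln; 1 gene that it named is not reported here. Of the marker lists it was followed only for those of stromal, vascular and ciliary cells and of proliferation. Alternatives were a pseudocount of 0.1, 2 rescalings, other filters and, added after seeing the data, leaving out Eln or Fbn2. Analysis used Python 3.11.15, pandas 2.3.3 and numpy 2.4.6.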

Additional observations from a re-analysis of the deposited data

Results flagged for a closer look

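Some values lay on opposite sides of the same control at different times, and none of these differences was tested. Fbln5 had a log2 change of -0.158 at 3 h, 0.0330 at 24 h and -0.0344 at 7 days, all within counting error of the control. The median of the protease inhibitor genes was 0.0791 at 3 h, -0.0593 at 24 h and 0.190 at 7 days, over 4 genes. The receptor genes had medians of -0.174, -0.109 and 0.0551, over 9 genes. The small leucine-rich proteoglycans had medians of -0.151, -0.187 and 0.0738, over 11 genes.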

How the results depend on the processing

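The counts of members lower by 1 log2 unit were the same in each of 5 comparisons under a pseudocount of 0.1 and both rescalings, and 24 of 25 alternative medians kept their direction and moved by less than the counting error. The exception was 24 h against 3 h, where the median of -0.0656 became 0.0714 without Eln. Of 90 alternative values for single members against the control, 88 kept their direction and stayed within counting error. Fbn1 at 24 h moved further, to -1.33 with a pseudocount of 0.1, and Fbln5 at 24 h changed sign within counting error, to -0.0128 after rescaling to the sum without lens, muscle, erythroid, corneal and small RNA genes. Counts for the other gene lists were not recomputed under these alternatives. The share of all genes lower by 1 log2 unit depended on which genes were counted. With no filter it was 0.164% at 3 h, 0.235% at 24 h, 0.124% at 7 days, 0.284% from 3 h to 24 h and 0.332% from 24 h to 7 days. Among protein-coding genes it was 0.111%, 0.214%, 0.0516%, 0.236% and 0.325%. No paired analysis was possible because each condition has 1 deposited value. Depth limits Mfap2, Mfap5 and Lox most, and the spread between animals is unknown for every gene.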
